A study of Mus musculus with 5 samples.

Results

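Principal cells are the epithelial cells of the collecting duct that take up water under vasopressin and sodium under aldosterone. In Drop-seq libraries of mouse cortex, outer medulla and whole kidney they were taken as barcodes with at least 200 detected genes in which Aqp2, the vasopressin-regulated water channel of the apical membrane, had at least 3 unique molecular identifiers (UMIs, 1 per captured mRNA molecule) and at least 1% of all UMIs. This chose 286 of the 11223 cells of these libraries, with 140 cells in outer medulla, 50 in cortex, 43 in whole kidney 2 and 53 in whole kidney 1. The series holds 12121 cells, of which 898 came from inner medulla, and there the same rule chose 411 cells that are used below only for comparison. Aqp2 chose the cells, so its levels are a description and it was left out of every total.

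Each of the 5 libraries came from wild-type mice of the strain written C56BL/6N in the labels, with no genetic change and no treatment. Kidneys were perfused with phosphate-buffered saline and taken whole, or microdissected into inner medulla, outer medulla and cortex. They were dissociated at low temperature with a protease of Bacillus licheniformis, and the cells were fixed in methanol and kept frozen until droplet capture. Age, sex and the number of animals behind a library are not given in the labels, and each region is 1 library, so p-values measure the spread between these libraries, which may be technical.

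In principal cells, vasopressin binds its receptor Avpr2 on the basolateral side and, through cyclic AMP, moves Aqp2 to the apical membrane, while Aqp3 and Aqp4 let water leave on the basolateral side. Sodium enters through the epithelial sodium channel, built from the subunits Scnn1a, Scnn1b and Scnn1g, and potassium leaves through channels such as Kcnj1. The enzyme Hsd11b2 inactivates glucocorticoids and so keeps the mineralocorticoid receptor free for aldosterone. The collecting duct is fed by the connecting tubule, whose cells carry the calcium-binding proteins Calb1 and S100g, and principal cells lie in it among the acid-base transporting intercalated cells.

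The members had a median of 390 UMIs in outer medulla, 513.5 in cortex, 434 in whole kidney 2 and 395 in whole kidney 1, against medians of 473, 517, 503.5 and 483 UMIs in the other cells of the same libraries. Summed, they held 73122 UMIs in outer medulla, 36516 in cortex, 23525 in whole kidney 2 and 27036 in whole kidney 1. A single cortex member with 8780 UMIs supplied 24.0% of the cortex sum. It also carried 19 of the 21 UMIs of Atp6v1g3, an intercalated cell proton pump subunit, found in cortex members. No doublet caller was run. Possible signs of another cell type were found in 19 members, 7 of them in outer medulla, 5 in cortex, 0 in whole kidney 2 and 7 in whole kidney 1. The signs were at least 2 Atp6v1g3 UMIs (4 members), at least 5% of UMIs in proximal tubule markers (8) or Klk1 at 1% of UMIs or more (7). Pairs of libraries shared between 2 and 14 barcodes, of which at most 1 per pair was a cell in both libraries. Such a shared cell was a member in 1 case between outer medulla and whole kidney 2 and in 1 case between inner medulla and whole kidney 2. From the markers of proximal tubule, free RNA was estimated at 15.9% of member UMIs in outer medulla, 9.67% in cortex, 13.1% in whole kidney 2 and 19.4% in whole kidney 1. This reads every UMI of those markers as free RNA, also in the 8 members rich in them, so it may be too high.

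The label was checked with 3 genes the rule did not use, Aqp3, Hsd11b2 and Fxyd4, the last a small regulator of the sodium pump found in the collecting duct. All 3 genes were detected in 203 of the 286 members (71.0%), 2 of them in 64 members, 1 in 16 and 0 in 3 members. Among the 10937 other cells, all 3 were detected in 72 cells (0.658%) and none in 9809 cells (89.7%). The members therefore carried the genes that mark principal cells, and almost all other cells did not. The edge of the rule was gradual. The 11 members with exactly 3 Aqp2 UMIs had 5512 CPM of Aqp3 (UMIs per 1000000, Aqp2 left out), against 1641 CPM in the 83 cells with 2 Aqp2 UMIs. The 45 members with Aqp2 just above 1% of UMIs had 4136 CPM of Aqp3, against 3230 CPM in the 35 cells just below it and 1324 CPM in the 53 cells with at least 3 Aqp2 UMIs and a still lower share.

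The members also held UMIs of markers of other cell types. The 16 proximal tubule markers took 0.907% of member UMIs in outer medulla, 0.569% in cortex, 0.863% in whole kidney 2 and 1.15% in whole kidney 1, against 6.83% to 8.21% in the other cells. Intercalated cell markers took 0.0394%, 0.0976%, 0% and 0.0189% of member UMIs in the same order, against 0.0280%, 0.0358%, 0.0292% and 0.0399% in the other cells, and 4 of these 9 genes, Slc26a4, Slc4a9, Insrr and Hmx2, were at 0 in all 4 libraries. Thin limb markers took 0.0197%, 0.0223%, 0.0347% and 0.0453% of member UMIs, against 0.0245%, 0.0174%, 0.0151% and 0.0192% in the other cells. All 5 podocyte markers were at 0 in every library. The 5 connecting tubule markers (Calb1, S100g, Klk1, Trpv5 and Slc8a1) took 0.119% of member UMIs in outer medulla, 1.35% in cortex, 1.31% in whole kidney 2 and 1.49% in whole kidney 1, against 0.240%, 0.831%, 0.512% and 0.674% in the other cells of those libraries.

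The stretches of 250 bases before the start of Aqp2, which chose the cells, and of Aqp3 and Fxyd4, which describe them, are shown from RefSeq on build GRCm38.p6. Capitals mark the letters AGATAA, bound by GATA factors, and TGACG, a half-site of the cyclic AMP response element, on either strand, where they read TTATCT and CGTCA. The Aqp2 stretch is chr15:99578806-99579055 on the plus strand, that of Aqp3 is chr4:41098184-41098433 on the minus strand, and that of Fxyd4 is chr6:117937336-117937585 on the minus strand.
Aqp2: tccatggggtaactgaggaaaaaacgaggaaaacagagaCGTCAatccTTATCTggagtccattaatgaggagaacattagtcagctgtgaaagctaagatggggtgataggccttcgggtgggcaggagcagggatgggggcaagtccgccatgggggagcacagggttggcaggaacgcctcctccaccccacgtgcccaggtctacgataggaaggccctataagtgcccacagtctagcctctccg
Aqp3: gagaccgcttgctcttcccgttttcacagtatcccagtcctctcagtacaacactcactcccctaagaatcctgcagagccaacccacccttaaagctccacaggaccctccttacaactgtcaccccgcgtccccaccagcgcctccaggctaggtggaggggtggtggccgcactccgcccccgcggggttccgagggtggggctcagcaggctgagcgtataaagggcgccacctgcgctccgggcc
Fxyd4: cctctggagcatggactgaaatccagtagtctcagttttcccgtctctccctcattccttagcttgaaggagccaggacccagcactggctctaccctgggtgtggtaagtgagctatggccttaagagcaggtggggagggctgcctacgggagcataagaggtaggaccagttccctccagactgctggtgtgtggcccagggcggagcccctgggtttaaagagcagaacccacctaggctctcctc
The Aqp2 stretch held 1 match to each motif, and the Aqp3 and Fxyd4 stretches held 0 matches to either. Over 32851 promoter stretches of this length, 9.99% held the GATA motif and 17.8% the half-site. The deposited tables carry gene symbols without coordinates, and the matches describe letters, not binding.

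The first comparison asked which genes set principal cells apart from all other cells of the same libraries, in sums of UMIs per library. Of 3457 genes tested, 620 were higher in principal cells (17.9% of those tested) and 797 lower (23.1%), by edgeR's quasi-likelihood test at an adjusted p under 0.05. With totals in place of TMM scaling the split was 931 higher and 543 lower, and the median gene moved by 0.38 on the log2 scale. Among the higher genes were Aqp4, Fxyd4, Avpr2 and Apela, and among the lower ones the organic anion transporter Slc22a6 of the proximal tubule.

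Among the 24 genes of water transport and vasopressin signalling, 10 passed the filter on low counts, 5 were higher, 2 lower, and the median log2 fold change was 1.08, against -0.05 over all genes tested. Over all 3457 genes tested, 17.9% were higher and 23.1% lower. Aqp3 was at 7702 CPM in principal cells of outer medulla, 6722 in cortex, 5120 in whole kidney 2 and 5660 in whole kidney 1, against 97.1, 108, 111 and 97.5 CPM in the other cells. The sets did not come near each other in any library, and the log2 fold change was 5.53 ± 0.17 (SE; adjusted p = 5.3e-38). Avpr2 was at 1026, 809, 390 and 679 CPM in principal cells, against 8.34, 6.74, 8.39 and 7.75 CPM in other cells, in the same order of libraries (6.13 ± 0.33; adjusted p = 7.9e-25). Aqp4 had 98, 6, 6 and 10 UMIs in principal cells, or 1377, 167, 260 and 377 CPM, against 10.7, 0, 2.10 and 3.32 CPM in other cells (6.74 ± 0.44; adjusted p = 1.1e-20). Ptger1, a prostaglandin E2 receptor, was higher by 6.27 ± 0.62 on the log2 scale (adjusted p = 1.8e-13), with 29, 4, 2 and 0 UMIs in principal cells, so most of its signal came from outer medulla. Prkar1a, a regulatory subunit of protein kinase A, was higher by 1.56 ± 0.24. The 2 lower genes, Aqp1 (-4.04 ± 0.65) and Aqp11 (-2.85 ± 0.66), are water channels of the proximal tubule.

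Of 20 genes of sodium transport and aldosterone action, 15 were tested, 9 were higher, 5 lower, and the median log2 fold change was 2.62. The shares over all 3457 genes were 17.9% higher and 23.1% lower. Hsd11b2 was at 6620 CPM in principal cells of outer medulla, 7056 in cortex, 5684 in whole kidney 2 and 5358 in whole kidney 1, against 76.3, 124, 84.9 and 91.4 CPM in the other cells (5.66 ± 0.17; adjusted p = 9.2e-39). Fxyd4 was at 13801, 6080, 7376 and 6302 CPM in principal cells, against 126, 50.4, 68.5 and 52.1 CPM in other cells (6.44 ± 0.17; adjusted p = 1.8e-41). Both genes were far higher in principal cells of every library, and Fxyd4 stood out in outer medulla. The 3 subunits of the sodium channel were all higher, Scnn1g by 5.28 ± 0.38, Scnn1b by 4.68 ± 0.34 and Scnn1a by 2.62 ± 0.42 on the log2 scale. Members were also set against cells low in proximal tubule markers, which are other cells with less than 1% of UMIs in those markers. There the list gave 6 higher and 5 lower of 15, and Scnn1a was at 0.037 and Stk39 at 0.69, neither called. Of all 3647 genes tested in that setting, 232 were higher and 326 lower. Sgk1, the aldosterone-induced kinase that keeps the channel at the surface, was higher by 3.70 ± 0.45 on 37 UMIs, of which 20 came from whole kidney 2. The ubiquitin ligase Nedd4l, which removes the channel, was higher by 2.71 ± 0.45, and the kinase Stk39 by 3.31 ± 0.33.

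Of the genes of the sodium pump, Atp1b1, a beta subunit, was higher by 0.46 ± 0.14 (adjusted p = 0.0055), but the call was lost without cortex or without whole kidney 2 (adjusted p = 0.053 in each). The call was also lost in cells with at least 500 genes (0.54) and with free RNA subtracted (0.29). A stricter Aqp2 rule (0.84) and no filter (0.94) lost it too. Against the cells low in proximal tubule markers Atp1b1 was lower, at -0.65 (adjusted p = 0.0016). Fxyd2, the regulator of the pump in more proximal segments, was lower by -2.95 ± 0.16, with 1181, 1283, 1736 and 1887 CPM in principal cells of outer medulla, cortex, whole kidney 2 and whole kidney 1, against 9079, 8674, 8987 and 8081 CPM in the other cells of those libraries. Principal cells were thus high in Fxyd4 and low in Fxyd2. The protease Prss8, an activator of the sodium channel, was lower by -1.55 ± 0.35 against all other cells, and 0.32 higher, not called, against cells low in proximal tubule markers.

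Of 8 potassium genes, 5 were tested, 4 were higher and 1 lower, where 17.9% of all 3457 genes were higher and 23.1% lower. Kcnj1, the secretory potassium channel, was at 1251 CPM in principal cells of outer medulla, 809 in cortex, 781 in whole kidney 2 and 1283 in whole kidney 1 (log2 fold change 2.83 ± 0.20; adjusted p = 5.9e-19). Kcne1, a small subunit that binds potassium channels, was higher by 5.02 ± 0.37, and the channel Kcnk1 by 2.62 ± 0.44. The basolateral channel Kcnj16 was lower by -0.62 ± 0.21 (adjusted p = 0.013). This call was lost under total scaling, without outer medulla and in cells with at least 500 genes. Of 6 potassium genes tested against cells low in proximal tubule markers, only Kcne1 was higher and 0 were lower (median 0.13). Of all 3647 genes tested in that setting, 232 were higher and 326 lower. Kcnj1 (0.15), Kcnk1 (0.12), Kcnj16 (-0.24) and the basolateral channel Kcnj10 (-0.97) were not called there.

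Of 20 transcription factors known from the collecting duct 10 were tested, 9 were higher and 0 lower (median 2.46). All 3457 genes tested gave 17.9% higher and 23.1% lower. Gata2, Gata3 and Ehf had the largest differences, at 4.92 ± 0.40, 4.24 ± 0.40 and 4.92 ± 0.37 on the log2 scale. Gata3, a factor of collecting duct development, was at 323, 251, 347 and 302 CPM in principal cells of outer medulla, cortex, whole kidney 2 and whole kidney 1, against 9.54, 17.1, 8.73 and 15.0 CPM in the other cells. Tfcp2l1, required for collecting duct cell types, was higher by 2.78 ± 0.25, Emx2 by 2.51 ± 0.33, Hoxd8 by 2.22 ± 0.26, Tfap2b by 2.41 ± 0.40, Pax8 by 1.55 ± 0.44 and Hoxb7 by 1.43 ± 0.35. Against the cells low in proximal tubule markers 5 of 12 were higher and 2 lower, where 232 of all 3647 genes were higher and 326 lower. Hoxd8 (-0.26), Tfap2b (-0.15), Hoxb7 (0.54) and Pax8 (1.17) were not called there. Of 10 Notch genes only 2 passed the filter, and Hes1, a Notch target, was higher by 3.0 ± 0.30.

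Junction and keratin genes were nearly all higher, with 10 of 12 tested higher and 2 lower (16 listed; median 3.27). In this comparison 17.9% of all 3457 genes were higher and 23.1% lower. Cldn8, a claudin of the distal tight junction, was at 1068 CPM in principal cells of outer medulla, 614 in cortex, 434 in whole kidney 2 and 755 in whole kidney 1, against 55.4, 42.0, 41.9 and 55.4 CPM in the other cells (3.52 ± 0.26; adjusted p = 1.0e-18). Cldn4 was higher by 5.08 ± 0.44, Cldn7 by 4.05 ± 0.36, Cldn3 by 4.10 ± 0.58 and Krt18, a keratin of simple epithelia, by 4.80 ± 0.44. The lower genes were Cldn2 (-2.70 ± 0.43), the pore-forming claudin of the proximal tubule, and Cldn10 (-3.56 ± 0.41). Secreted and surface proteins gave 14 higher and 2 lower of 17 tested (median 3.19). Apela, a peptide ligand of the apelin receptor, was at 3317, 2092, 2126 and 1924 CPM in principal cells, against 69.1, 22.2, 22.4 and 16.6 CPM in other cells, in the order outer medulla, cortex, whole kidney 2 and whole kidney 1 (5.88 ± 0.19; adjusted p = 2.9e-36). Lgals3 was higher by 4.88 ± 0.19, the ammonia channel Rhcg by 4.51 ± 0.28, Car15, a membrane-bound carbonic anhydrase, by 3.80 ± 0.19, and the defensin Defb1 by 1.78 ± 0.15. Against cells low in proximal tubule markers Defb1 was lower (-0.94; adjusted p = 1.9e-06), and Tmem213 was at -0.34 and not called.

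**Figure D1:**
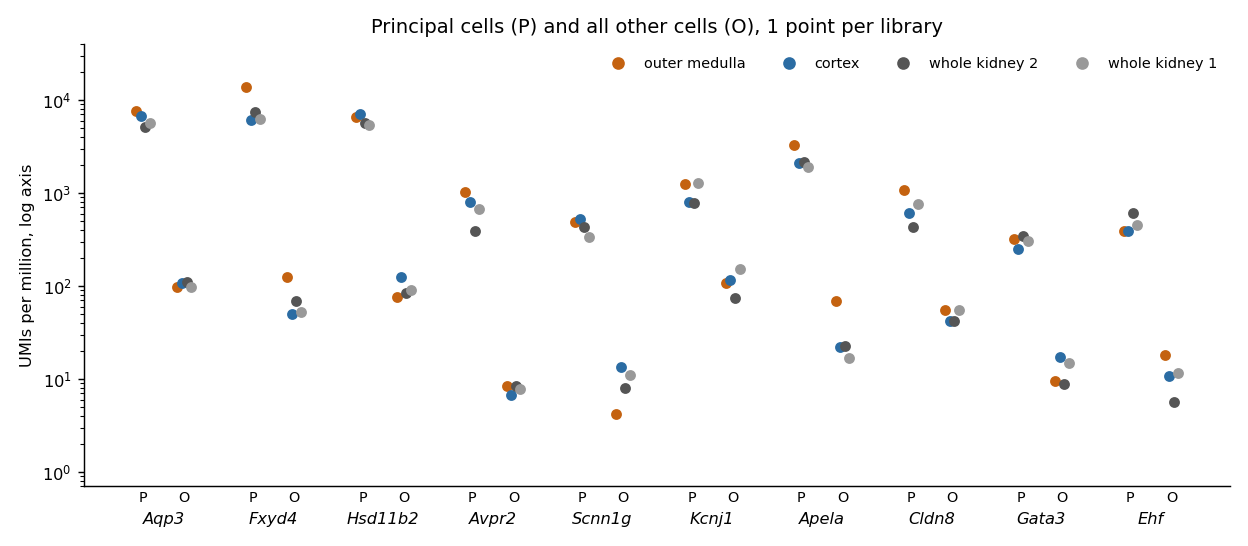
Levels of 10 genes in CPM on a log axis, for principal cells (P) and all other cells (O), with 1 point per library and colours for outer medulla, cortex, whole kidney 2 and whole kidney 1. For each gene the 4 points of principal cells lie above the 4 points of the other cells, as for Aqp3 with 5120 to 7702 against 97.1 to 111.

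All 30 nuclear genes of oxidative phosphorylation were tested, 24 were lower in principal cells, 0 higher, and the median log2 fold change was -0.67. Of all 3457 genes tested, 23.1% were lower and 17.9% higher. The called differences lay between -1.22 and -0.41. At the far end was Sdhb, a subunit of complex II (-1.22 ± 0.20; adjusted p = 3.8e-07). It was at 492, 614, 477 and 491 CPM in principal cells of outer medulla, cortex, whole kidney 2 and whole kidney 1, against 979, 855, 1010 and 859 CPM in the other cells. Cox7c, a subunit of complex IV, was lower by -0.93 ± 0.16. With total scaling the count fell to 6 lower and 0 higher (median -0.28). Against cells low in proximal tubule markers it was 29 lower and 0 higher, where 326 of all 3647 genes were lower and 232 higher. Of 11 tested glycolytic genes 4 were higher and 1 lower (median 0.45), beside 17.9% and 23.1% of all 3457 genes. Hk1 (3.12 ± 0.55), Pkm (2.37 ± 0.28), Aldoa (0.92 ± 0.16) and Ldhb (0.59 ± 0.14) were the higher ones. Against cells low in proximal tubule markers, Hk1 (0.41) was not called. Aldoa (-0.05), Pkm (-0.22) and Ldhb (-0.22) were not called there either, and the direction of Aldoa, Pkm and Ldhb differed between the comparison cells.

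The calcium genes also differed in direction between the comparison cells. Calb1 (1.39 ± 0.17), S100g (0.98 ± 0.19) and the sodium-calcium exchanger Slc8a1 (1.14 ± 0.35) were higher in principal cells than in all other cells, 3 of 6 genes tested. Among all 3457 genes, 17.9% were higher and 23.1% lower. Klk1, a kallikrein of the connecting tubule, was lower by -1.20 ± 0.25, although 2 libraries had it higher and 2 lower. Against cells low in proximal tubule markers, Calb1 (-1.32), S100g (-1.59) and Slc8a1 (-1.56) were lower. In members chosen by a stricter Aqp2 rule S100g was at -1.28, and in cells with at least 500 genes at -0.57.

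The rule for named genes also gave Hacd4 (5.91 ± 0.53), Arhgdib (5.85 ± 0.41), Gstm2 (5.62 ± 0.25), Cav1 (5.20 ± 0.34) and Tmem150c (5.18 ± 0.48) as higher in principal cells. Cav1, the coat protein of caveolae, was at 394 CPM in outer medulla, 474 in cortex, 607 in whole kidney 2 and 943 in whole kidney 1, against 9.91 to 14.3 CPM in the other cells. The lower genes were Calml4 (-6.18 ± 0.45), the organic anion transporters Slc22a6 (-5.61 ± 0.50) and Slc22a8 (-4.40 ± 0.63), the sulfate transporter Slc13a1 (-4.07 ± 0.47), Thnsl2, Cideb, Hlf, Cmbl, Lactb2, Ces1f and Tmigd1 (between -5.46 and -4.34), and Ttr (-4.08 ± 0.26). Ttr was at 0.37 and not called against cells low in proximal tubule markers. Proximal tubule markers took 6.83% to 8.21% of UMIs in the other cells, and their part in these lower genes was not tested.

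**Figure D2:**
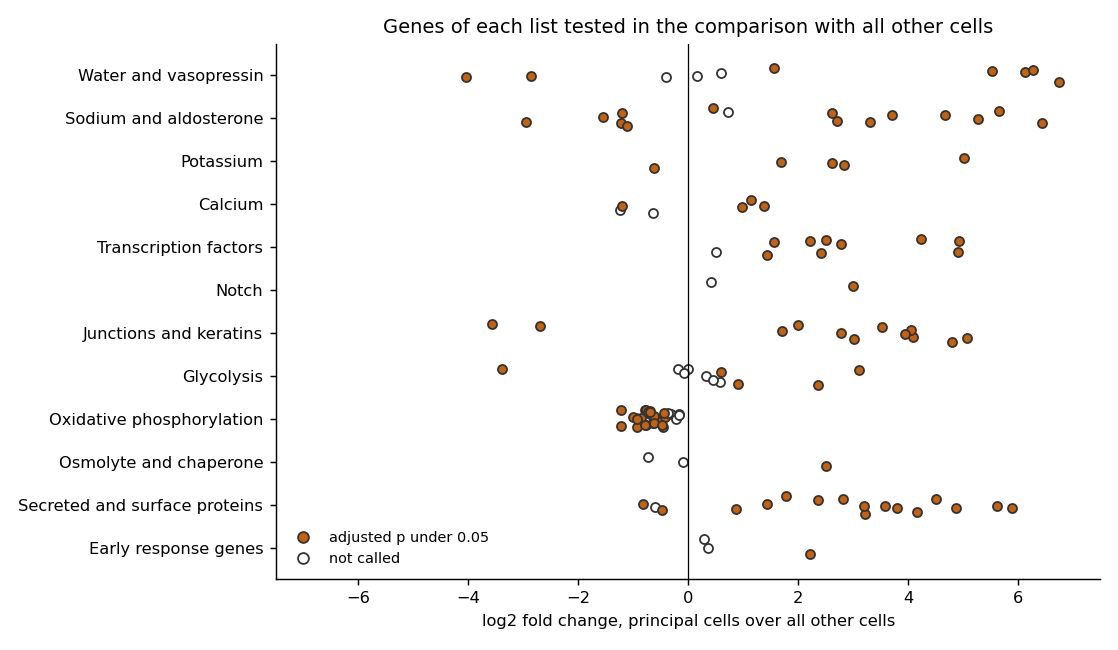
Log2 fold change of principal cells over all other cells for each tested gene of 12 gene lists, with filled points for an adjusted p under 0.05 and open points for genes not called. The 24 called genes of oxidative phosphorylation lie between -1.22 and -0.41, and 9 of the 10 transcription factors are called above 0.

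The second comparison set principal cells beside the cells richest in Calb1, a marker of the segment that leads into the collecting duct. These were 226 other cells with at least 3 Calb1 UMIs and Calb1 at 1% of UMIs or more, 18 in outer medulla, 50 in cortex, 90 in whole kidney 2 and 68 in whole kidney 1, and Calb1 was left out of the fit. Principal cells had higher water channel, receptor and ligand genes and lower kallikreins, Slc12a3 and calcium genes, while several sodium and potassium genes did not pass the test. Of 3527 genes, 119 were higher in principal cells (3.37%) and 99 lower (2.81%). Some Calb1-rich cells carried Slc12a3, a gene of the distal convoluted tubule, so the set may span more than 1 segment. Without those cells 139 genes were called, against 218 with them.

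Car15 had 213 UMIs in principal cells and 1 in Calb1-rich cells (log2 fold change 6.97 ± 0.55; adjusted p = 1.5e-34). Aqp4 had 120 UMIs in principal cells and 0 in Calb1-rich cells, so it was at least 32.9-fold higher in principal cells, with 3 counts over the Calb1-rich sum as the floor. Outer medulla held 98 of the 120 UMIs, and without it the bound was 10.2-fold. On the same floor Sgk1 (37 UMIs against 0) was at least 10.1-fold, the factor Emx2 (46 against 0) at least 12.6-fold, Timp2 at least 12.1-fold, Tmem150c at least 10.7-fold and Ahnak and Hacd4 at least 9.59-fold higher. The call of Sgk1 was lost without whole kidney 2, where its bound was 3.44-fold. With 1 library left out, the other bounds went down to 8.09-fold for Emx2 and 6.67-fold for Tmem150c (without whole kidney 2), 7.92-fold for Timp2 (without outer medulla), 6.06-fold for Ahnak (without whole kidney 2) and 6.17-fold for Hacd4 (without whole kidney 1). Of 8 water and vasopressin genes tested, 3 were higher and 0 lower. Fxyd4 (5.70 ± 0.34), Aqp3 (4.38 ± 0.30), Avpr2 (4.48 ± 0.56), Apela (3.39 ± 0.30) and Car2 (3.24 ± 0.27) were also higher on the log2 scale. Hsd11b2 differed less, at 2.24 ± 0.25, with 1987 CPM in the Calb1-rich cells of outer medulla, 1193 in cortex, 928 in whole kidney 2 and 985 in whole kidney 1.

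In the other direction, Klk1 was lower in principal cells by -5.61 ± 0.42, with 70.3 CPM in outer medulla, 5355 in cortex, 607 in whole kidney 2 and 4415 in whole kidney 1, against 78524, 79766, 54776 and 60166 CPM in Calb1-rich cells. Klk1b5 was lower by -5.23 ± 0.40, and Klk1b1 (0 UMIs against 42) and Klk1b4 (0 against 27) were at least 17.0-fold and 11-fold lower. These kallikreins are near-identical copies, so their counts may be split or shared between them. Sfrp1, a secreted inhibitor of Wnt signalling, had 2 UMIs in principal cells and 288 in Calb1-rich cells (-6.94 ± 0.45), and Tmem72 had 0 and 37 (at least 15.0-fold lower). Without outer medulla the bounds were 9.30-fold for Klk1b1 and 7.87-fold for Tmem72, and without cortex 5.19-fold for Klk1b4. Slc12a3, the thiazide-sensitive sodium chloride cotransporter of the distal convoluted tubule, was lower by -4.86 ± 0.45 and the kinase Wnk1 by -4.50 ± 0.33. Slc12a3 was at 836 CPM in the Calb1-rich cells of outer medulla, 1082 in cortex, 1279 in whole kidney 2 and 1231 in whole kidney 1. Among the calcium genes 5 of 6 tested were lower and 0 higher, with S100g at -3.61 ± 0.36 and Slc8a1 at -3.35 ± 0.28.

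The sodium genes were divided. Of 14 tested, Hsd11b2, Sgk1, Nedd4l and Fxyd4 were higher and 4 were lower, among them Fxyd2 (-2.77 ± 0.26), Wnk1 and Usp2 (-1.62 ± 0.45). The Usp2 call was lost with no filter, with DESeq2, without cells carrying Slc12a3 and without outer medulla, whole kidney 1 or whole kidney 2. That of Nedd4l was lost with DESeq2, without cells carrying Slc12a3 and without whole kidney 2. The channel subunits did not pass the test, with Scnn1a at -0.17 ± 0.49, Scnn1b at 0.46 ± 0.36 and Scnn1g at 1.11 ± 0.42, and neither did Kcnj1 at -0.32 ± 0.24. Of the junction genes 5 of 11 were higher and 0 lower, and of the transcription factors 3 of 12 were higher (Gata2, Ehf and Emx2) and 1 lower. The junction count was 1 higher with DESeq2, 2 without cortex or whole kidney 1 and 3 with no filter. The Gata2 call was lost with no filter, with DESeq2 and without cells carrying Slc12a3. It was also lost without cortex, whole kidney 1 or whole kidney 2. Defb1 was lower by -1.38 ± 0.24 and Spp1, the secreted phosphoprotein osteopontin, by -3.22 ± 0.26. The 30 genes of oxidative phosphorylation gave 5 lower and 0 higher (median -0.51, against 0.08 over all genes). This count was 2 lower with total scaling, 0 with no filter, with DESeq2, without cells carrying Slc12a3 and without cortex, whole kidney 1 or whole kidney 2, 14 without outer medulla and 8 without members rich in other markers.

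The third comparison was with the cells that share the collecting duct. These were 203 other cells with at least 2 UMIs of Atp6v1g3 and Atp6v1g3 at 0.5% of UMIs or more, 36 in outer medulla, 61 in cortex, 54 in whole kidney 2 and 52 in whole kidney 1. It uses the same principal cell sums as the other comparisons, so the results are not independent of each other. Of 3770 genes, 180 were higher in principal cells (4.77%) and 209 lower (5.54%). Avpr2, Scnn1b, Scnn1g and Kcnj1 were higher in principal cells, and the bicarbonate exchangers Slc26a4 and Slc4a9 were lower.

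Several genes were at 0 in the Atp6v1g3-positive cells of every library. Avpr2 had 129 UMIs in principal cells and was at least 32.8-fold higher, Aqp4 (120 UMIs) at least 30.5-fold, Scnn1g and Arhgdib (73 UMIs each) at least 18.6-fold, Kcne1 (71 UMIs) at least 18.1-fold and Tbck (37 UMIs) at least 9.41-fold. Without outer medulla, which held 98 of the Aqp4 UMIs, the bound was 8.75-fold for Aqp4 and 11.5-fold for Arhgdib. It was 12.2-fold for Scnn1g without cortex, 9.74-fold for Kcne1 without whole kidney 1 and 5.61-fold for Tbck without whole kidney 2. Apela had 411 UMIs in principal cells and 1 in Atp6v1g3-positive cells (7.53 ± 0.48; adjusted p = 6.3e-52). Fxyd4 (6.95 ± 0.35), Hsd11b2 (5.71 ± 0.31), Npnt (5.36 ± 0.53), Kcnj1 (3.99 ± 0.40), Aqp3 (3.69 ± 0.25) and Scnn1b (2.66 ± 0.47) were higher too. Calb1 was higher by 3.66 ± 0.32 and S100g by 3.12 ± 0.25. Of 13 water genes 5 were higher and 3 lower, of 14 sodium genes 6 and 1, of 6 potassium genes 3 and 0, and of 12 transcription factors 4 and 1. Scnn1a (-0.10 ± 0.47), Tfcp2l1 (-0.36 ± 0.26), Epcam (-0.03 ± 0.23) and Atp1b1 (0.04 ± 0.20) did not pass the test, which does not show that they were equal.

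The chloride-bicarbonate exchangers Slc26a4 and Slc4a9 had 0 UMIs in principal cells, against 192 and 77 in Atp6v1g3-positive cells, so they were at least 83.9-fold and 33.6-fold lower in principal cells. The transcription factor Hmx2 (0 against 110) was at least 48.1-fold lower, the peptidase Mme (0 against 45) at least 19.7-fold, Sult2a3 (0 against 29) at least 12.7-fold and Lmcd1 (0 against 27) at least 11.8-fold. Without outer medulla these bounds were 48.0-fold for Slc26a4, 18.7-fold for Slc4a9, 27.1-fold for Hmx2, 10.9-fold for Mme and 6.42-fold for Lmcd1, and without cortex 5.91-fold for Sult2a3. Emb (-6.13 ± 0.60) and Guca2a, the peptide guanylin (-5.72 ± 0.70), were lower as well, and Slc4a1, the basolateral exchanger of acid-secreting cells, had 2 UMIs in principal cells and 38 in Atp6v1g3-positive cells. Car2 (-1.40 ± 0.21), Car15 (-0.80 ± 0.21), Plet1 (-1.59 ± 0.33), Tmem213 (-1.05 ± 0.21) and Spp1 (-2.18 ± 0.23) were lower in principal cells. Of 30 genes of oxidative phosphorylation 16 were lower and 0 higher (median -0.66, against 0.00 over all genes), with Sdhb at -1.48 ± 0.24. This count was 2 lower with DESeq2, 6 with no filter, 10 against stricter comparison cells, 7 without cortex and 11 without outer medulla or whole kidney 2.

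**Figure D3:**
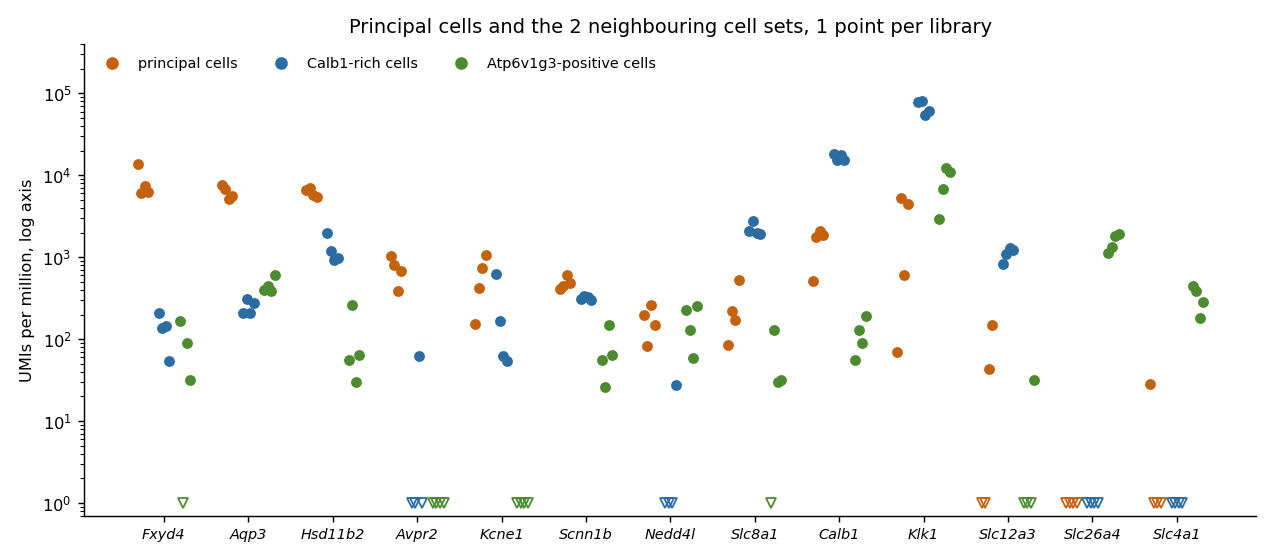
Levels of 13 genes in CPM on a log axis in principal cells, Calb1-rich cells and Atp6v1g3-positive cells, with 1 point per library in the order outer medulla, cortex, whole kidney 2 and whole kidney 1, and open triangles at the foot for 0 UMIs. Calb1 chose the Calb1-rich cells. Slc26a4 is at 0 in principal cells and Avpr2 at 0 in Atp6v1g3-positive cells of all 4 libraries.

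Principal cells were next compared between the libraries of different regions. They made up 5.77% of outer medulla cells (95% Clopper-Pearson interval 4.87 to 6.77), 1.63% of cortex cells (1.21 to 2.14), 1.30% of whole kidney 2 cells (0.943 to 1.75) and 2.19% of whole kidney 1 cells (1.65 to 2.86). The share in outer medulla was 3.54 times that in cortex (2.55 to 5.0). Outer medulla members had more Aqp4 and Fxyd4, and cortex and whole kidney members more Calb1, S100g and Klk1, while Hsd11b2 had an interval that spanned 1 between outer medulla and cortex. With 1 library per region there is no test. Intervals are exact, at 95%, and cover counting error only, and the ratio of whole kidney 2 over whole kidney 1 is the only measure of how far libraries of the same kind differ.

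Aqp4 was at 1377 CPM in outer medulla members and 167 CPM in cortex members, a ratio of 8.23 (3.65 to 23.0) that rests on 98 and 6 UMIs. It was detected in 49 of 140 members of outer medulla (35.0%), 6 of 50 of cortex (12%), 3 of 43 of whole kidney 2 (6.98%) and 7 of 53 of whole kidney 1 (13.2%), against 0% to 0.568% of the other cells. With each member thinned to 300 UMIs the shares were 27.5%, 7.14%, 2.94% and 7.14% of the 109, 42, 34 and 42 members deep enough. The ratio of whole kidney 2 over whole kidney 1 for Aqp4 was 0.690 (0.206 to 2.10). Fxyd4 was 2.27-fold higher in outer medulla than in cortex members (1.96 to 2.64), with 1.17 (0.940 to 1.46) between the whole kidney libraries. Aqp3 had a ratio of 1.15 (0.983 to 1.34), with 92 of the 241 Aqp3 UMIs of cortex in its deepest member, and of 1.42 (1.19 to 1.72) without the deepest 5% of cells. Hsd11b2 had a ratio of 0.938 (0.804 to 1.10).

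Calb1 ran against Aqp4. It was at 520 CPM in outer medulla members and 1757 CPM in cortex members, 3.38-fold lower (2.22 to 5.22), with 2083 CPM in whole kidney 2 and 1887 CPM in whole kidney 1. It was detected in 23 of 140 outer medulla members (16.4%) and 24 of 50 cortex members (48.0%), and in 44.2% and 39.6% of members of whole kidney 2 and whole kidney 1. After thinning, the shares were 11% in outer medulla, 38.1% in cortex, 38.2% in whole kidney 2 and 38.1% in whole kidney 1. Among other cells Calb1 was detected in 4.33% in outer medulla, 9.70% in cortex, 9.63% in whole kidney 2 and 11.9% in whole kidney 1, so its share in the members was above that level in each library. S100g was at 520 CPM in outer medulla members against 6164 CPM in cortex members, 11.9-fold lower (8.34 to 17.3). A few members carried much of this signal, with 53 of 221 S100g UMIs of cortex members in 1 cell and 111 of 234 of whole kidney 2 members in 1 cell. In outer medulla the share of members with S100g (8.57%) was below that of other cells (9.44%), which include the Calb1-rich cells.

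Klk1 was at 70.3 CPM in outer medulla members and 5355 CPM in cortex members, but 607 CPM in whole kidney 2 and 4415 CPM in whole kidney 1, so libraries of the same kind differed 7.27-fold (4.16 to 13.7). One cortex member held 103 of the 192 UMIs. Klk1 was detected in 22.0% of cortex members and 22.6% of other cortex cells, and in 3.57% of outer medulla members and 12.9% of other outer medulla cells, so neither share stood clearly above that of the other cells. Tmem52b was 4.27-fold lower in outer medulla than in cortex members (2.46 to 7.66), with 281 CPM in outer medulla, 1199 in cortex, 1562 in whole kidney 2 and 2113 in whole kidney 1.

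Of 2399 genes with at least 10 UMIs over both libraries, 3.83% had an interval above 1 between outer medulla and cortex members and 4.63% below 1. Between whole kidney 2 and whole kidney 1 these shares were 3.55% and 2.71% of 1070 genes. Of the water and vasopressin list, Aqp4, Ptger1 (3.65, 1.28 to 14.3), Vamp8, a vesicle fusion protein (2.05, 1.17 to 3.79), and Gnas, the stimulatory G protein subunit (1.5, 1.06 to 2.16), were above cortex. Aqp2 was above too, but it chose the cells, so its level is only a description. Kcnj1 was above (1.55, 1.01 to 2.44) and Kcne1 below (2.71-fold lower, 1.16 to 6.51). Against either whole kidney library, 0 potassium genes were above in outer medulla members, and Kcne1 was below. Cldn8 (1.74), Apela (1.59), Rhcg (1.92), Plet1 (4.70) and the chaperone Cryab (2.98) were above, and Defb1 (1.62-fold), Car15 (2.01-fold) and Tfap2b (5.29-fold) were lower in outer medulla members. Of 30 genes of oxidative phosphorylation 1 was above and 4 below. The sodium channel subunits were close, with Scnn1b at 0.913 (0.480 to 1.80) and Scnn1g at 0.928 (0.517 to 1.72).

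**Figure D4:**
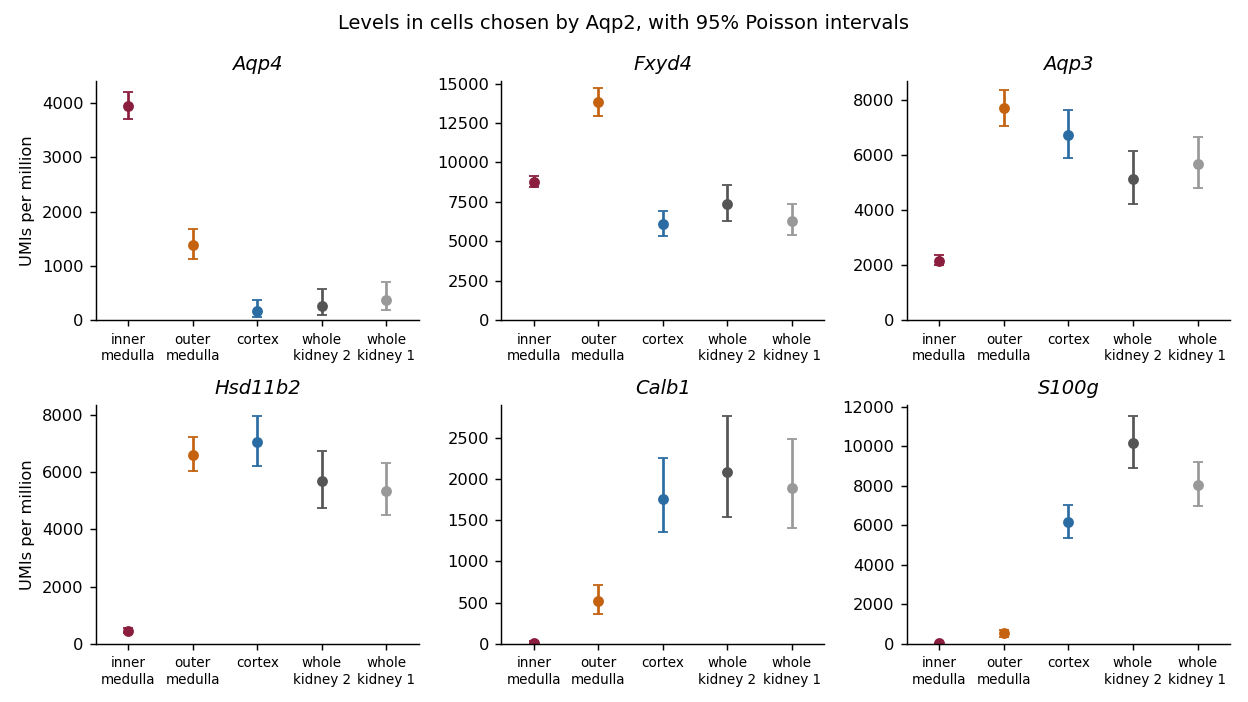
Levels of 6 genes in CPM in the cells chosen by Aqp2, for inner medulla, outer medulla, cortex, whole kidney 2 and whole kidney 1, with exact 95% Poisson intervals that cover counting error only. Aqp4 is at 3951 in inner medulla, 1377 in outer medulla and 167 in cortex, and Calb1 is at 7.87, 520 and 1757 in the same order.

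The same rule applied to inner medulla chose 411 of 898 cells (45.8%). Inner medulla cells had much less Hsd11b2, sodium channel and Kcnj1 and more Aqp4, Cryab and Plet1 than outer medulla members. Hsd11b2 was at 449 CPM in inner medulla and 6620 CPM in outer medulla members, 14.8-fold lower (12 to 18.3), and was detected in 13.1% and 87.9% of them. Scnn1b was 17.3-fold lower (7.04 to 50.8), Scnn1g 12.5-fold (6.06 to 28.3) and Kcnj1 79.5-fold (30.0 to 298). Car15 (83.3-fold), Rhcg (36.3-fold), Ccnd1 (31.7-fold), Tmem213 (20.8-fold), Defb1 (11.7-fold), Tfcp2l1 (8.82-fold) and Car2 (7.33-fold) were lower, and Kcne1 and Tmem52b had 0 UMIs in inner medulla, at least 13.1-fold and 23.8-fold lower.

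Aqp4 was at 3951 CPM in inner medulla and 1377 CPM in outer medulla members, a ratio of 2.87 (2.33 to 3.57), so its order was inner medulla, outer medulla and then cortex. Sgk1 (6.16, 3.18 to 13.7), the urea transporter gene Slc14a2 (33.9, 5.97 to 1349), Cryab (8.17) and Plet1 (9.88) were above as well. Aqp3 was 3.56-fold lower in inner medulla, Avpr2 1.42-fold (1.07 to 1.87) and Fxyd4 1.57-fold. Calb1 had 2 UMIs in the inner medulla cells, 66.1-fold lower than in outer medulla members (17.0 to 566). Of 5574 genes with at least 10 UMIs over both libraries, 8.97% were above 1 between inner medulla and outer medulla and 9.13% below. Of 14 measured sodium genes 3 were above and 8 below, and of 30 genes of oxidative phosphorylation 0 were above and 23 below. Gata3 was close, at 346 CPM in inner medulla and 323 CPM in outer medulla (1.07, 0.671 to 1.78). All 3 label genes were detected in 10.5% of the inner medulla cells, against 75.7% of outer medulla members.

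Within the members, cells with at least 1 Calb1 UMI were set against cells with none, in the sums of each library. Detection in a cell depends on its depth, with medians of 423, 535, 457 and 401 UMIs in Calb1-detected members of outer medulla, cortex, whole kidney 2 and whole kidney 1, against 390, 392.5, 417.5 and 394.5 UMIs in the others. Of 3770 genes, 5 were called (0.133%). Klk1, S100g, Spp1 and Tmem52b were higher in Calb1-detected members and Aqp4 was lower, while the main principal cell genes did not pass the test.

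S100g was at 2607 CPM in Calb1-detected members of outer medulla, 7170 in cortex, 21317 in whole kidney 2 and 15834 in whole kidney 1, against 117, 4412, 801 and 3095 CPM in undetected members. It was higher in all 4 libraries (log2 fold change 2.58 ± 0.28; adjusted p = 5.2e-17) and was called under 9 of 10 alternatives, with DESeq2 as the exception. Klk1 was at 86.9, 8132, 856 and 10783 CPM in Calb1-detected members, against 67.1, 464, 400 and 371 CPM in undetected members, in the same order (3.43 ± 0.37; adjusted p = 5.2e-17). The Klk1 difference was large in cortex and whole kidney 1 and small in outer medulla and whole kidney 2. It was called under 8 of 10 alternatives, with adjusted p from 3.1e-35 to 1.0. DESeq2 did not call it, and the alternative without members rich in other markers removes cells by Klk1 itself and so is no test of Klk1. Spp1 was higher in all 4 libraries by 1.69 ± 0.36 (adjusted p = 0.0028). Tmem52b was called higher too (1.29 ± 0.31; adjusted p = 0.029), but it was lower in cortex, fell outside the rule for named genes and is named because the calls are few. Spp1 and Tmem52b were each called under 4 of 10 alternatives.

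Aqp4 had 4, 3, 0 and 2 UMIs in Calb1-detected members of outer medulla, cortex, whole kidney 2 and whole kidney 1, against 94, 3, 6 and 8 in undetected members. It was lower by -2.13 ± 0.51 (adjusted p = 0.029), but 8 of 10 alternatives lost the call, with adjusted p from 0.0053 to 1.0. Fxyd4 was at 8865, 5640, 4663 and 4469 CPM in Calb1-detected members, against 14763, 6890, 9686 and 7489 CPM in undetected members. It was thus lower in all 4 libraries, yet did not pass the adjusted test (-0.87 ± 0.25; adjusted p = 0.20). Aqp3 (-0.45 ± 0.25; adjusted p = 1.0) and Hsd11b2 (-0.09 ± 0.24) did not pass either. Connecting tubule markers other than Calb1 took 0.304%, 1.54%, 2.27% and 2.78% of UMIs in Calb1-detected members, against 0.0218%, 0.534%, 0.120% and 0.365% in undetected members, and the principal cell markers took 2.65%, 2.24%, 1.75% and 1.85% against 3.31%, 2.47%, 2.49% and 2.35%. Whether free RNA or doublets with Calb1-rich cells had a part in this difference was not tested.

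**Figure D5:**
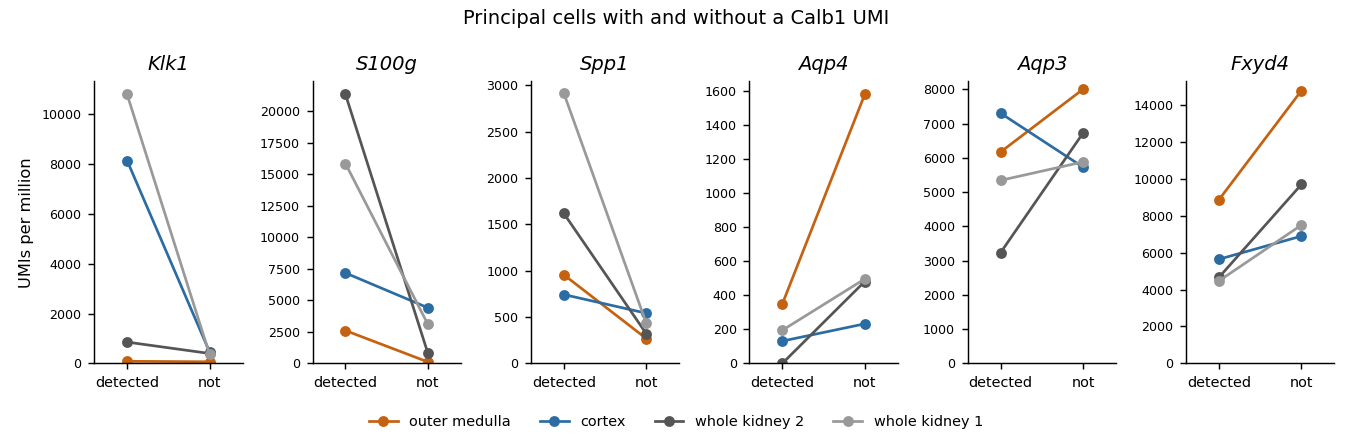
Levels of 6 genes in CPM in principal cells with a Calb1 UMI (detected) and without one (not), with 1 line per library. S100g and Spp1 are higher in detected cells in each of the 4 libraries, Aqp4 and Fxyd4 lower, and Aqp3 differs in direction between libraries.

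The split by Aqp4 uses the same cells as the split by Calb1 and is not independent of it. Of the members, 5 had both genes detected, 60 Aqp4 alone, 82 Calb1 alone and 139 neither. Calb1 was detected in 7.69% of Aqp4-detected and 37.1% of Aqp4-undetected members, but libraries differ in both genes, and within outer medulla the values were 2.04% and 24.2%. Outer medulla members with Aqp4 had a median of 509 UMIs, against 380 in those without. In cortex they were 3 of 6 Aqp4-detected members and 47.7% of 44 undetected members. After thinning, 1 of 227 members had both.

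Of 3847 genes tested between Aqp4-detected and Aqp4-undetected members of outer medulla, cortex and whole kidney 1, 8 were called (0.208%), all lower in Aqp4-detected members. Whole kidney 2 had only 3 detected members and was not entered. S100g had 1, 0 and 11 UMIs in Aqp4-detected members of outer medulla, cortex and whole kidney 1, against 36, 221 and 202 UMIs in undetected members (-4.34 ± 0.46; adjusted p = 3.4e-17). Calb1 was at 30.7, 519 and 805 CPM, against 936, 2348 and 2138 CPM (-2.89 ± 0.47; adjusted p = 8.6e-07). Klk1 (-3.55 ± 0.49), Kl, the co-receptor klotho of the distal tubule (-3.37 ± 0.85), Tmem52b (-3.33 ± 0.54), Selenop (-1.76 ± 0.45), Gpx3 (-1.72 ± 0.34) and Kap (-1.43 ± 0.34) were the others. Without cortex, where the deepest member supplied 8780 of the 11797 UMIs of Aqp4-detected members, 0 genes were called, and DESeq2 called only Klk1.

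Proximal tubule markers, Kap among them, took 0.549%, 0.328% and 0.543% of UMIs in Aqp4-detected members of outer medulla, cortex and whole kidney 1, against 1.21%, 0.684% and 1.29% in undetected members, and their part in the lower Kap, Gpx3 and Selenop was not tested. Principal cell genes did not pass the test. Aqp3 was at 9262, 10285 and 7041 CPM in Aqp4-detected members, against 6398, 5025 and 5344 CPM in undetected members, higher in all 3 libraries but not called (0.30 ± 0.32; adjusted p = 1.0), and 92 of the 119 Aqp3 UMIs of the detected cortex members came from the deepest member. Hsd11b2 was at -0.33 ± 0.32 and Fxyd4 at -0.20 ± 0.32. Of the water and vasopressin list 0 of 11 genes were called, and of the calcium list 3 of 5 were lower.

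Hsd11b2 was detected in most members, 123 of 140 in outer medulla (87.9%), 46 of 50 in cortex (92.0%), 40 of 43 in whole kidney 2 (93.0%) and 45 of 53 in whole kidney 1 (84.9%), against 2.71% to 4.00% of the other cells. Its level ran from 5358 to 7056 CPM over the 4 libraries, and the ratio of outer medulla over whole kidney 1 had an interval above 1. Undetected members were shallower in outer medulla (median 350 UMIs, against 406 in detected members) and whole kidney 1 (343.5, against 416). These 2 libraries alone had enough undetected members, 17 and 8 cells with 5953 and 2871 UMIs. Of 3726 genes 9 were called higher in Hsd11b2-detected members (0.242%), among them Tmem52b (4.25 ± 0.99), Rnasek (4.13 ± 0.99), Car15 (2.82 ± 0.73), Nudt4 (1.82 ± 0.38) and Aqp3 (1.29 ± 0.33; adjusted p = 0.047). The median over all genes was itself 0.57, and 0 genes were called with totals in place of TMM scaling or with DESeq2, with 20 and 8 genes at an unadjusted p under 0.05, so the calls depended on the scaling and the test. Aqp3 was at 7828 and 5732 CPM in detected members of outer medulla and whole kidney 1, against 6913 and 5348 CPM in undetected members.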

How the data were processed

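The deposited tables hold UMI counts per gene and cell barcode, without normalization, from Drop-seq libraries sequenced on a NextSeq 500, per the labels' protocols. The submitters' processing notes name mm9 and Seurat 2.3.1 without a role; aligner and annotation: not given in the sources used here. Members and lists were chosen with earlier results of these data known.

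Barcodes with at least 200 genes were kept and counts summed per library and cell set. Sets were compared with edgeR 4.0.16 (R 4.3.3; quasi-likelihood test, TMM scaling, library as a term, mean CPM of at least 50, Benjamini-Hochberg adjustment, threshold 0.05). A library entered where both sets held at least 5 cells. DESeq2 1.42.0 and other settings were alternatives, and the fit was tested on simulated data. CPM totals leave out Aqp2. Intervals (95%; Python 3.11.15, scipy 1.17.1) are exact and cover counting error only. A fold against 0 uses 3 counts over the set's sum. Named genes had passed the test, had at least 200 CPM in the higher set, moved the same way in every library entered and were not ribosomal, mitochondrial or haemoglobin genes; up to 12 each way were taken against all other cells and up to 8 in other comparisons, by size, with the list genes added. The 19 members with signs of other cell types were left out only in an alternative. Some genes are not reported here.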

Additional observations from a re-analysis of the deposited data

How the results depend on the processing

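Against all other cells, 620 genes were higher, but 931 with library totals, 349 in cells with at least 500 genes, 232 against cells low in proximal tubule markers and 356 under a stricter Aqp2 rule (5 UMIs and 2%), and 464 to 596 with 1 library left out. The lower genes were 797, but 1541 with no filter and 326 against cells low in proximal tubule markers, and 653 to 757 with 1 library left out. The 218 calls against Calb1-rich cells became 129 with no filter, 89 with DESeq2 and 139 without cells carrying Slc12a3, and 126 to 224 with 1 library left out. The 389 calls against Atp6v1g3-positive cells became 168 with DESeq2, and 298 to 312 with 1 library left out. The 8 calls of the Aqp4 split became 1 with DESeq2, 1 after thinning and 4 without members rich in other markers, and 0 to 7 with 1 library left out. The 5 calls of the Calb1 split became 2 with no filter, 0 with DESeq2 (23 at an unadjusted p under 0.05), 22 after thinning and 2 in members with at least 500 UMIs, and 2 to 12 with 1 library left out. The 9 calls of the Hsd11b2 split became 0 with library totals, 0 with DESeq2 and 25 without members rich in other markers; leaving out a library and the 500-UMI setting could not be run there. The alternative without members rich in other markers was chosen after seeing the data. The cause of these changes was not tested.

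The outer medulla share was 3.54 times that of cortex, 9.34 under the stricter and 2.50 under a looser rule. The ratio of outer medulla over cortex for Aqp3 was 1.15, but 1.42 without the deepest 5% of cells and 1.39 without members rich in other markers. Under the stricter rule it was 0.737 for Hsd11b2 (0.559 to 0.987, an interval below 1), 1.69 for Fxyd4 and 0.152 for S100g, and inner over outer medulla was 0.0839 for Hsd11b2.

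Of 114 named genes against all other cells, some changed direction, in 20 results over all alternatives. Against cells low in proximal tubule markers the log2 values were -0.050 for Aldoa, -0.65 for Atp1b1, -0.25 for Btg2, -1.32 for Calb1, -0.94 for Defb1, -0.26 for Hoxd8, -0.97 for Kcnj10, -0.22 for Ldhb, 1.34 for Ndrg1, -0.22 for Pkm, 0.32 for Prss8, -1.59 for S100g, -1.56 for Slc8a1, -0.15 for Tfap2b, -0.34 for Tmem213 and 0.37 for Ttr. Atp1b1 was at -0.042 with no filter, S100g at -0.57 in cells with at least 500 genes and -1.28 under the stricter rule, and Slc8a1 at -0.19 there. With the library as a term, cell sets were compared within each library. Between regions, no paired analysis was possible because each region is 1 library. Depth limits genes with few UMIs, such as Aqp4 in cortex members.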

Other observations

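Some groups outside the comparisons above rested on few UMIs. Sgk1, the aldosterone-induced kinase, had 20 UMIs in 13 principal cells of whole kidney 2 and 2 UMIs in 2 principal cells of whole kidney 1, a ratio of 11.5 (exact 95% interval 2.79 to 101), with 9 UMIs in outer medulla and 6 in cortex. Libraries of the same kind thus differed for Sgk1, and inner medulla cells chosen by Aqp2 had 198 UMIs, or 779 CPM. Lcn2, an iron-siderophore binding protein, had 23 UMIs in outer medulla members, 4 in cortex, 0 in whole kidney 2 and 1 in whole kidney 1. Of the Notch list 1 of 2 tested genes was higher against all other cells, of the osmolyte and chaperone list 1 of 3 (Cryab) and of the early response genes of dissociation 1 of 3 (Btg2), with 0 lower in each. Of all 3457 genes tested 17.9% were higher and 23.1% lower, and counts this small do not set these lists apart from those shares.

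Of 7 measured osmolyte and chaperone genes 3 were above 1 and 1 below between inner medulla and outer medulla, each 1 library, where 8.97% and 9.13% of all measured genes were above and below. The small heat shock protein Hspb1 had 108 UMIs in inner medulla cells and 1 in outer medulla members, a ratio of 30.2 (5.31 to 1205), and Hspa1b had 30 and 1 (8.40, 1.4 to 343). The taurine transporter Slc6a6 had 6 and 10 UMIs, 5.95-fold lower in inner medulla (1.96 to 19.9). Jund, an early response gene, was at 1008 CPM in inner medulla cells and 267 CPM in outer medulla members (3.77, 2.37 to 6.37), and Btg2 at 260 and 84.3 CPM (3.08, 1.34 to 8.70).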
